A study of Homo sapiens with 9 samples.

Results

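The chemokines CXCL1, CXCL2, CXCL3, CXCL8, CXCL16, CCL2, CCL5 and CCL20 and the chemokine receptors CXCR4 and ACKR3 were followed across 3 lines of breast cancer cells. These 10 genes were taken from the deposited count table by their symbol, out of 58884 genes in all. All 10 had at least 1 count. Of these, 7 passed the filter on low counts that was applied before testing, together with 13001 genes in all, while CXCL3, CCL5 and CCL20 stayed below it. ACKR3 passed the filter only through Par libraries, CXCL16 only through Par replicate 1 and CXCL2 only through Par replicate 3. CXCL1 passed it only through LM2 and BrM2 libraries, so the genes tested are not a neutral sample of the 10.

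RNA-seq was performed on the parental MDA-MB-231 line (Par), a claudin-low breast cancer line, and on sub-populations of it that had been selected in mice for colonization of the lung (LM2) or the brain (BrM2). Each line had 3 libraries, made from cells harvested at different passages, and all 3 lines were grown as monolayers in DMEM with FBS and antibiotics, without any other treatment. LM2 and BrM2 are 1 selected sub-population each, so the replicates measure the spread between cultures of that sub-population and not between independent selections. No stroma, immune cell or host tissue was cultured with the cells.

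Chemokines are small secreted proteins that direct cell movement through receptors that couple to inhibitory G proteins. CXCL1, CXCL2, CXCL3 and CXCL8 attract neutrophils through CXCR2, and CXCL8 also binds CXCR1. CCL2 attracts monocytes through CCR2, CCL5 binds CCR1 and CCR3 among others, CCL20 binds CCR6, and CXCL16 is made as a membrane protein that ADAM10 can release and that binds CXCR6. CXCR4 is the signaling receptor for CXCL12 and is known for its part in the homing of breast cancer cells, whereas ACKR3 binds CXCL12 and CXCL11 and removes them without coupling to G proteins. Transcription of many of the ligands is induced by NF-κB downstream of cytokines such as IL-1β.

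The neutrophil-attracting CXC ligands lie together on chromosome 4, and the DNA upstream of their start sites is shown so that these related genes can be compared. RefSeq promoter sequences of the GRCh38.p14 build were given for 6 of the 10 genes. CXCL16 (chr17:4733533-4739928), CCL2 (chr17:34255285-34257203), CCL5 (chr17:35871491-35880360) and ACKR3 (chr2:236537122-236582354) had no entry. The 150 bases before the outermost start site are printed 5′ to 3′ for CXCL1 (chr4:73869243-73869392 on the plus strand), CXCL2 (chr4:74099196-74099345 on the minus strand), CXCL3 (chr4:74038690-74038839 on the minus strand) and CXCL8 (chr4:73740419-73740568 on the plus strand), and for CXCR4 (chr2:136118150-136118299 on the minus strand) as the receptor with the contrast described further on. Capitals mark GGAATTTCC, a form of the NF-κB site, and TATAAA, the TATA box, each searched on both strands, with overlapping matches joined.
CXCL1: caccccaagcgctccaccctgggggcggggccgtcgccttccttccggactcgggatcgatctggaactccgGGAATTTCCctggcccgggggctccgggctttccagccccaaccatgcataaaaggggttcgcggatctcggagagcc
CXCL2: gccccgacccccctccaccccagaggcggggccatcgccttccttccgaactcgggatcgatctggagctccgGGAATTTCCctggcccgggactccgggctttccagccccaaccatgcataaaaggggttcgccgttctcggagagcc
CXCL3: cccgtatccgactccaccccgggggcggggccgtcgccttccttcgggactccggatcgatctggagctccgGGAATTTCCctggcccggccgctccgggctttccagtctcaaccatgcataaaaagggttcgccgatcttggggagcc
CXCL8: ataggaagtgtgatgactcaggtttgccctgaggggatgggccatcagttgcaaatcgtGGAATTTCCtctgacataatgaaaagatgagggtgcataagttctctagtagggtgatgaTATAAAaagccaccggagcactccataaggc
CXCR4: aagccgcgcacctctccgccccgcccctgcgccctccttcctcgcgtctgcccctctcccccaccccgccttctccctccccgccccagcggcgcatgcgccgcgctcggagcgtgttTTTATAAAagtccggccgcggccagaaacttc

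GGAATTTCC began 78 bases before the start site in CXCL1 and CXCL3, 77 bases before it in CXCL2 and 91 bases before it in CXCL8. It was absent from the 250 bases searched in CCL20 and CXCR4, and 0.413% of 35116 RefSeq promoters held it in a window of that length. The broader NF-κB consensus, a motif held by 9.96% of all promoters, overlapped GGAATTTCC in CXCL1, CXCL2 and CXCL3, was found in CCL20 at 79 bases before its start, and had no match in CXCL8 or CXCR4. TATAAA was found in CXCL8, CCL20 and CXCR4, and in 10.7% of all promoters. TGANTCA, the AP-1 motif, was found once in CXCL8, 137 bases before its start, against 6.57% of all promoters. The printed CXCL1 and CXCL2 sequences were identical in 88.7% of aligned columns, CXCL1 and CXCL3 in 88.1%, and CXCL2 and CXCL3 in 86.1%, whereas CXCL1 and CXCL8 shared 45.1%. A match is a description of the letters and not a measurement of binding.

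The libraries held 19878879 to 23948742 counts in Par, 23581487 to 24511786 in LM2 and 14371858 to 22055215 in BrM2. At these depths 3 counts in a library are worth 0.115 to 0.221 normalised CPM, edgeR's counts scaled to a common library size, which is the level below which a gene is called here at the floor. The libraries numbered 1 stood apart in all 3 lines. Their normalization factors were 0.845 to 0.945, against 1.03 to 1.07 for the others. Departures from the lines' means correlated across genes between libraries of the same number, and libraries of different numbers were not compared. Calls were therefore also made with the replicate number as a block, and those values are given beside each named gene whose call they change. VIM, CD44, AXL, CAV1 and EGFR, fixed as markers of the claudin-low line, were all expressed, with a summed level of 3708 to 6063 CPM over the 9 libraries. CLDN4, on the list of genes low or absent in such a line, had 1850 to 2197 counts in the Par libraries, 111 to 156 in LM2 and 216 to 443 in BrM2. Among 7 leukocyte markers, PTPRC had at most 6 counts and S100A8 had 0 in all libraries, but CD14 and CSF1R were counted, and the summed level of the list was 8.22 to 17.4 CPM in Par, 4.24 to 10.7 in LM2 and 2.43 to 4.72 in BrM2. Of 5 endothelial markers CDH5 had at most 4 counts, but PECAM1 (39 to 183) and KDR (69 to 204) were counted in every library, and the summed level of the list was 6.83 to 13.4 CPM in Par, 7.14 to 9.23 in LM2 and 10.5 to 12.4 in BrM2. Of 5 fibroblast and pericyte markers DCN had at most 2 counts, but COL1A1 averaged 6.84 CPM in Par, 43.5 in LM2 and 7.68 in BrM2, and PDGFRB 28.9, 6.05 and 8.06. The summed level of that list was 34.3 to 40.7 CPM in Par, 43.6 to 66.5 in LM2 and 12.5 to 23.3 in BrM2, and the part of these markers in the results was not tested. In bulk RNA, fewer cells that express a gene and less RNA per cell cannot be told apart, and this holds for every level given here.

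CCL2 and CXCR4 showed the widest range of the 10 genes, with high counts in BrM2, intermediate counts in Par and nearly none in LM2. ACKR3 and CXCL16 were highest in Par. CXCL1 was higher in BrM2 than in Par. The libraries of CXCL8 were highest in BrM2 as well, and passed against both other lines only with the replicate block or under another alternative. The libraries of CXCL2 and CXCL3 overlapped between the 3 lines.

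**Figure D1:**
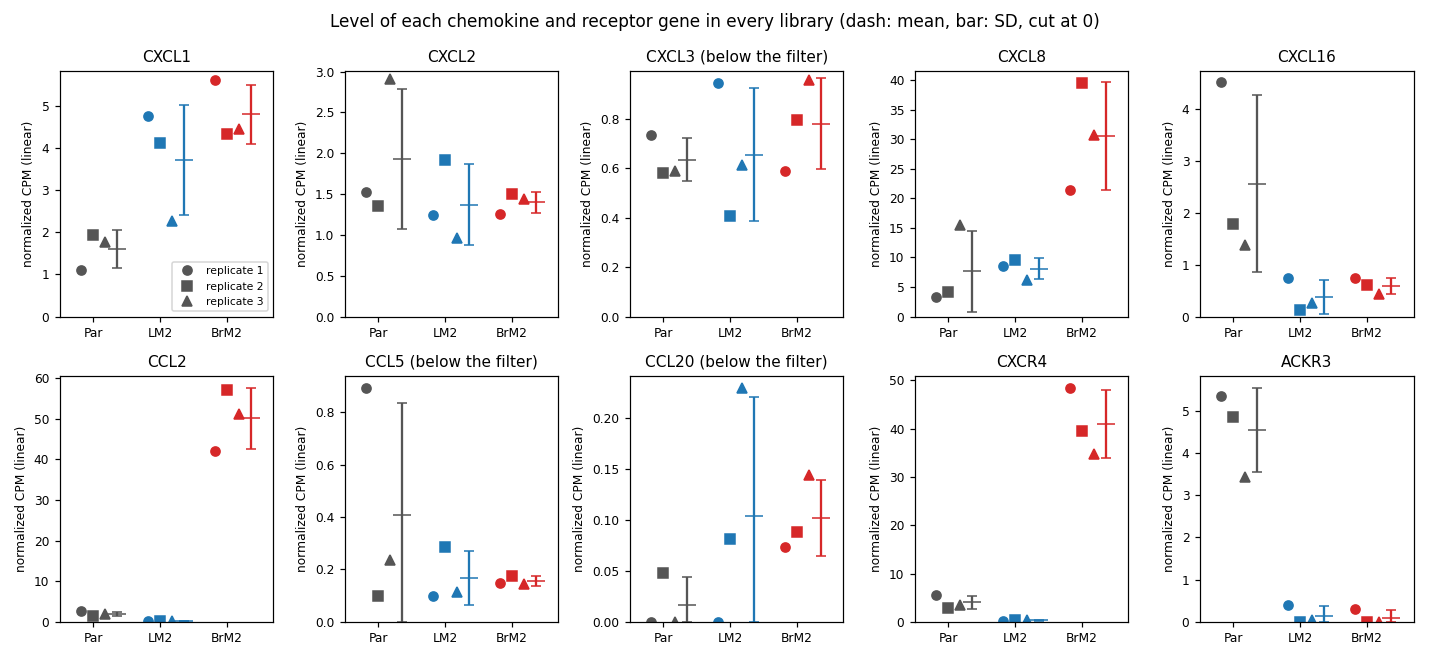
Normalised CPM of the 10 chemokine and receptor genes in each library (points, with a shape for each replicate) of Par, LM2 and BrM2, with the mean and SD over 3 libraries. The axes are linear and each gene has its own. In the panels of CCL2 and CXCR4 the BrM2 libraries sit at 34.7 to 57.1 CPM and every other library at or below 5.62 CPM.

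CXCL1 was counted 21, 40 and 45 times in Par replicates 1 to 3, 96, 101 and 59 times in LM2 and 76, 98 and 93 times in BrM2. In CPM these are means of 1.60 ± 0.441 in Par, 3.72 ± 1.30 in LM2 and 4.80 ± 0.706 in BrM2 (SD, n = 3 each). The Par libraries lay below all 6 others, and LM2 and BrM2 overlapped. CXCL1 was higher in BrM2 than in Par by 1.57 on the log2 scale (SE 0.35), a 2.97-fold difference, with an adjusted p of 0.0172 in edgeR's quasi-likelihood test. This call was lost without BrM2 replicate 3 (adjusted p = 0.0519), without Par replicate 1 (0.0609) and without Par replicate 3 (0.0548) in edgeR. Its adjusted p reached 0.246 over all alternatives. In LM2 the difference from Par was 1.20 (SE 0.34) and did not pass (edgeR adjusted p = 0.0684). It passed with the replicate block, where the difference was 1.15 and the edgeR adjusted p 0.0137, and the adjusted p ranged from 0.0111 to 0.586 over all alternatives. Leaving out LM2 replicate 3 also brought it past the threshold (edgeR adjusted p = 0.0367). Between BrM2 and LM2 the difference was 0.37 (SE 0.33, edgeR adjusted p = 0.621).

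CXCL2, which like CXCL3 was close to CXCL1 in the printed promoter sequences, had 29, 28 and 74 counts in Par, 25, 47 and 25 in LM2 and 17, 34 and 30 in BrM2. Its mean level was 1.93 ± 0.852 CPM in Par, 1.37 ± 0.493 in LM2 and 1.40 ± 0.128 in BrM2 (SD, n = 3). Par replicate 3 was the highest library and the 3 lines overlapped. The differences were -0.50 (SE 0.38) for LM2 and -0.47 (SE 0.39) for BrM2 against Par, and 0.03 (SE 0.39) between BrM2 and LM2, with edgeR adjusted p-values of 0.569, 0.543 and 0.979. Without Par replicate 3 the first 2 were -0.07 and -0.04. CXCL3, the third of the GRO chemokines, had 10 to 20 counts in each library except 8 in BrM2 replicate 1 and was not tested, with means of 0.635 ± 0.0869 CPM in Par, 0.655 ± 0.270 in LM2 and 0.781 ± 0.184 in BrM2 (SD, n = 3). The 3 genes share sequence. Of the 50-base stretches of their transcripts, 4.57% in CXCL1, 13.4% in CXCL2 and 6.01% in CXCL3 occur in another gene, mostly in each other, so that reads from these stretches could have been dropped or misplaced.

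CXCL8, the gene of interleukin-8, had 63, 85 and 396 counts in Par, 171, 235 and 160 in LM2 and 289, 896 and 640 in BrM2. The mean levels were 7.66 ± 6.86, 8.07 ± 1.77 and 30.5 ± 9.11 CPM (SD, n = 3). The BrM2 libraries lay above all others, at 21.3 to 39.6 CPM, and within Par replicate 3 stood at 15.6 CPM against 3.31 and 4.11 in the other two. The difference between BrM2 and Par was 1.99 (SE 0.57) and missed the threshold (edgeR adjusted p = 0.0505). It passed with the replicate block, at 2.11 and an edgeR adjusted p of 0.0031, and the adjusted p ranged from 0.00143 to 0.556 over all alternatives. Without Par replicate 3 the difference was 3.04 (edgeR adjusted p = 0.00287), and without BrM2 replicate 1 it was 2.19 (edgeR adjusted p = 0.0491). BrM2 exceeded LM2 by 1.92 (SE 0.57, edgeR adjusted p = 0.0795), and with the block by 1.86 (edgeR adjusted p = 0.00677, with a range of 0.00346 to 0.544 over the alternatives). Here too the difference passed without Par replicate 3 (edgeR adjusted p = 0.00918), a library that enters this comparison only through the common estimate of the spread. LM2 and Par differed by 0.07 (SE 0.55, edgeR adjusted p = 0.975), and the value was below 0 without Par replicate 1, Par replicate 2 or LM2 replicate 2 and 1.12 without Par replicate 3.

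CXCL16, the transmembrane ligand, was a gene of low counts, with 86, 37 and 35 in Par, 15, 3 and 7 in LM2 and 10, 14 and 9 in BrM2. Every Par library lay above every LM2 and BrM2 library, and Par replicate 1 was the highest at 4.52 CPM. The means were 2.56 ± 1.71 CPM in Par, 0.378 ± 0.326 in LM2 and 0.596 ± 0.155 in BrM2 (SD, n = 3). CXCL16 was lower in LM2 than in Par by -2.78 (SE 0.66) on the log2 scale (edgeR adjusted p = 0.0334). The call was kept in 3 of 9 fits that left out 1 library, with differences of -3.65 to -2.09. It was lost without BrM2 replicate 2 (edgeR adjusted p = 0.0615) or 3 (0.059), LM2 replicate 2 (0.121) or 3 (0.131) and Par replicate 1 (0.102) or 2 (0.0682). The adjusted p of this call reached 0.384 over all alternatives. In BrM2 the difference from Par was -2.10 (SE 0.64, edgeR adjusted p = 0.0663), and with the block it passed, at -1.93 (edgeR adjusted p = 0.00149, with a range of 0.00149 to 0.382 over the alternatives). It also passed without LM2 replicate 1 (edgeR adjusted p = 0.0309). The sublines differed from each other by 0.67 (SE 0.72, edgeR adjusted p = 0.687). Exons of CXCL16 overlap those of ZMYND15 by 96 bases and those of MED11 by 76 bases on the opposite strand. ZMYND15 had 7 counts over the 9 libraries and MED11 2126, and the strand that was counted is not stated in the sources used here.

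CCL2, the monocyte chemoattractant, had 49, 32 and 48 counts in the Par libraries, 3 in each of the LM2 libraries, and 570, 1293 and 1066 in the BrM2 libraries. The 3 lines did not overlap. Mean levels were 2.003 ± 0.522 CPM in Par, 0.129 ± 0.0179 in LM2 and 50.1 ± 7.56 in BrM2 (SD, n = 3), and every LM2 library was at the floor of 3 counts. In BrM2, CCL2 was higher than in Par by 4.64 on the log2 scale (SE 0.27, edgeR adjusted p = 3.53e-05), a 24.99-fold difference. In LM2 it was lower than in Par by -3.91 (SE 0.33, edgeR adjusted p = 0.000218). From the summed counts, the Par level was 15.6 times that of LM2, with a 95% interval of 7.95 to 34.8 for counting error alone. BrM2 exceeded LM2 by 8.55 (SE 0.34, edgeR adjusted p = 1.99e-05), and the ratio of summed counts was 404 (95% interval 212 to 883). All 3 calls were kept in each of the 9 fits that left out 1 library. CCL2 shares no 50-base stretch with another annotated gene.

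The other CC ligands stayed near the floor. CCL5 had 17, 2 and 6 counts in Par, 2, 7 and 3 in LM2 and 2, 4 and 3 in BrM2, and CCL20 had at most 6 counts in any library, with 1 count over the 3 Par libraries. Neither was tested. Of the 50-base stretches of CCL5, 16.9% occur in another gene. Differences between the lines in these genes were not detectable at this depth.

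CXCR4 followed the order of CCL2, with 107, 61 and 89 counts in Par, 5, 9 and 8 in LM2 and 657, 897 and 724 in BrM2. No library of one line fell among those of another. The means were 4.02 ± 1.41 CPM in Par, 0.307 ± 0.0595 in LM2 and 40.9 ± 6.99 in BrM2 (SD, n = 3). CXCR4 was higher in BrM2 than in Par by 3.35 on the log2 scale (SE 0.30, edgeR adjusted p = 0.000223), which is 10.2-fold. It was lower in LM2 than in Par by -3.67 (SE 0.34, edgeR adjusted p = 0.000363). Between BrM2 and LM2 the difference was 7.02 (SE 0.37, edgeR adjusted p = 4.46e-05), with a ratio of summed counts of 128 (95% interval 84.6 to 205). Each call was kept in 9 of 9 fits without 1 library. RefSeq lists 3 start sites for CXCR4, and the counts per gene do not tell which of them was used.

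ACKR3, the scavenging receptor for CXCL12, had 102, 100 and 87 counts in Par, 8, 0 and 1 in LM2 and 4, 0 and 0 in BrM2. Par libraries lay above all others, and in both sublines most of the few counts came from replicate 1. The mean was 4.54 ± 1.004 CPM in Par, against 0.145 ± 0.219 in LM2 and 0.0984 ± 0.170 in BrM2 (SD, n = 3). ACKR3 was lower than in Par by -5.04 in LM2 (SE 0.99, edgeR adjusted p = 0.0136) and by -5.83 in BrM2 (SE 1.11, edgeR adjusted p = 0.00858). By summed counts, the Par level was 34.9 times that of LM2 (95% interval 18.1 to 77.05) and 63.3 times that of BrM2 (95% interval 24.5 to 234). Without LM2 replicate 1 the LM2 difference was fitted at -7.47 and without BrM2 replicate 1 that of BrM2 at -9.67. The libraries that remain then hold 1 count in LM2 and 0 in BrM2, so these values depend on the fit and are no bounds. The LM2 call was lost without LM2 replicate 2 (edgeR adjusted p = 0.0591), LM2 replicate 3 (0.0656) or Par replicate 2 (0.0514), and the BrM2 call was kept in 9 of 9 such fits. It was lost when all libraries numbered 2 (edgeR adjusted p = 0.188) or all numbered 3 (0.172) were left out. The difference between BrM2 and LM2, -0.79 (SE 1.48, edgeR adjusted p = 0.84), turned to 1.63 without LM2 replicate 1. The summed leukocyte list, given with the depths, was also highest in Par at its upper end, and its part in the ACKR3 and CXCL16 levels was not tested.

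**Figure D2:**
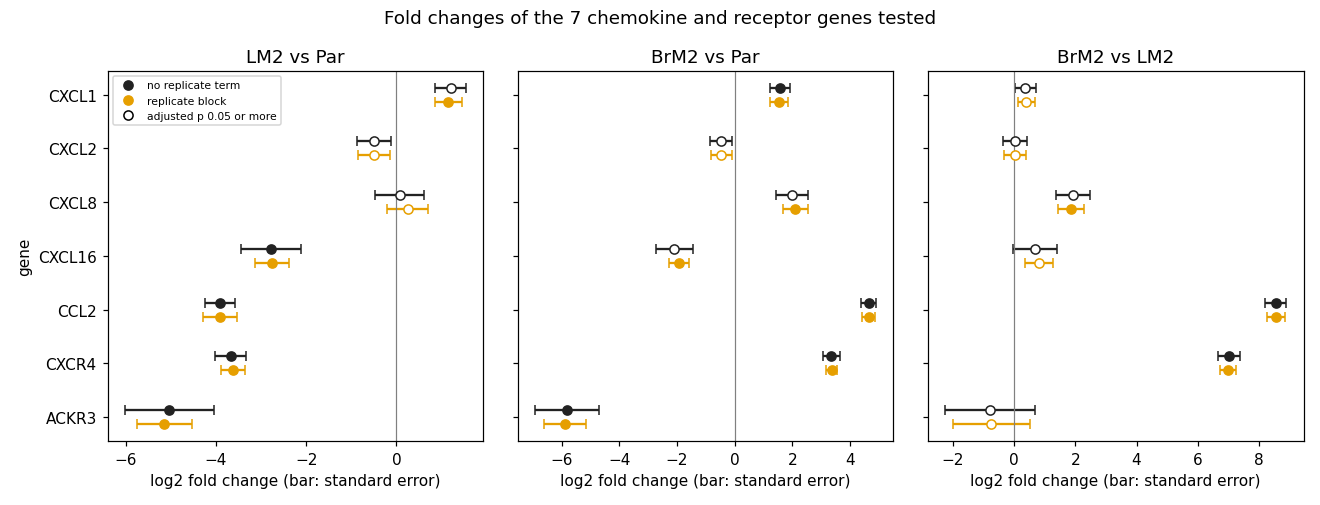
Log2 fold change (x axis) with its standard error for the 7 chemokine and receptor genes tested, in each of the 3 comparisons, from edgeR without a replicate term (black) and with the replicate block (orange). Filled points passed an adjusted p of 0.05. CCL2 and CXCR4 lie on opposite sides of 0 in the LM2 and BrM2 comparisons with Par.

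In LM2 against Par, 4 of the 7 genes tested passed, all of them lower (CXCL16, CCL2, CXCR4 and ACKR3), beside 8.65% of all genes tested, of which 4.17% higher and 4.48% lower. With the replicate block 5 passed, CXCL1 being added as higher, beside 34.5% of all genes. In BrM2 against Par 4 of the 7 passed, with CXCL1, CCL2 and CXCR4 higher and ACKR3 lower, beside 13.2% of all genes, of which 6.25% higher and 6.99% lower. With the block 6 passed, beside 42.7% of all genes. Between BrM2 and LM2, CCL2 and CXCR4 passed, both higher in BrM2, beside 8.08% of all genes (4.08% higher), and with the block CXCL8 was added, beside 37.5%. Libraries of the lines did not overlap for 5 of the 7 genes in LM2 against Par (25.1% of all genes), 6 in BrM2 against Par (31.3%) and 3 in BrM2 against LM2 (23.1%). The median log2 fold changes of the 7 genes were -2.78, 1.57 and 0.67, and those of all genes were within 0.03 of 0. The filter kept ACKR3, CXCL16 and CXCL2 only through Par libraries and CXCL1 only through LM2 and BrM2 libraries. These counts and medians are therefore a description of the 7 genes and support nothing about the group. The comparisons of LM2 and of BrM2 with Par share the Par libraries, so their values are given side by side and not as separate evidence.

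Levels of different genes were compared per kilobase of merged exons. In Par the highest were CXCL8 with 2.96 ± 2.65 CPM per kb and ACKR3 with 2.19 ± 0.485, followed by CXCR4 with 1.39 ± 0.486, CXCL2 with 1.38 ± 0.610, CXCL1 with 1.18 ± 0.324, CCL2 with 1.04 ± 0.270 and CXCL16 with 0.917 ± 0.611 (SD, n = 3). ACKR3 was above CXCR4 by more than either SD, and the other neighbours in this order differed by less than the larger SD of the pair. In LM2 the order was CXCL8 with 3.12 ± 0.683 CPM per kb, CXCL1 with 2.73 ± 0.955 and CXCL2 with 0.982 ± 0.353, and the other 7 genes were all at or below 0.295 CPM per kb. The first 2 of these did not differ beyond their spread. In BrM2 CCL2 led with 25.9 ± 3.90 CPM per kb, above CXCR4 with 14.1 ± 2.41 and CXCL8 with 11.8 ± 3.52, which overlap, and then CXCL1 with 3.52 ± 0.519. ACKR3, second in Par, was at 0.0475 ± 0.0824 CPM per kb in BrM2, among the genes at the floor.

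**Figure D3:**
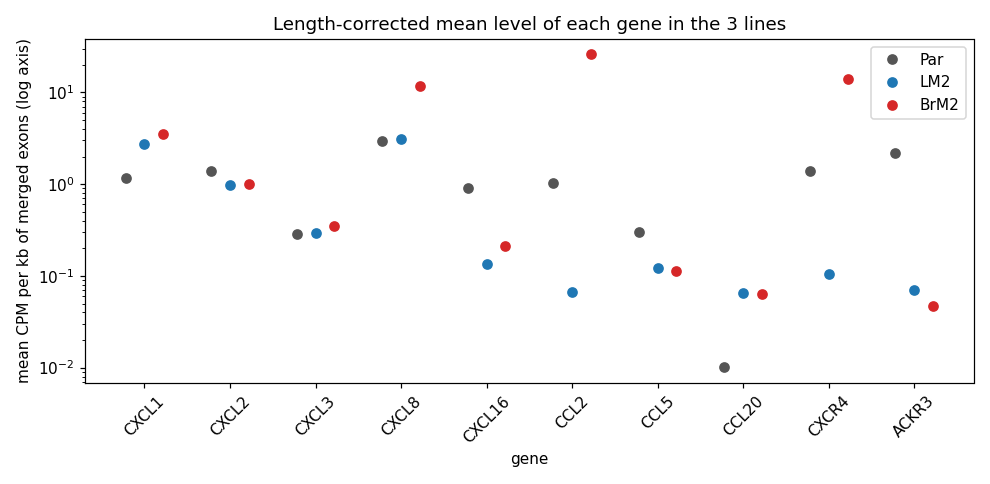
Mean CPM per kilobase of merged exons (log axis) of the 10 genes in Par, LM2 and BrM2, which allows levels of different genes to be compared. In BrM2 CCL2, CXCR4 and CXCL8 lie above 11 CPM per kb, and in LM2 CCL2, CXCR4 and ACKR3 lie near or below 0.106 CPM per kb.

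The partners of these genes were mostly not counted in the same cells. CXCL12, the ligand of CXCR4 and ACKR3, had 0 counts in all 9 libraries, which allows up to 3 counts in each, and CXCL11 had 39 counts over the 3 Par libraries, 4 over LM2 and 8 over BrM2. CXCR1 had 2 counts in 1 LM2 library, and CXCR2 had 1 count in 1 BrM2 library. CCR2, the receptor for CCL2, had at most 6 counts in any library, and CCR6 had 0. CXCR6, the receptor for CXCL16, had 41 counts over the Par libraries, 45 over LM2 and 62 over BrM2 and was below the filter. CX3CR1 had 0 counts in all 9 libraries. MIF, a cytokine that also binds CXCR4, is expressed by most cells and was listed at 0 in all 9 libraries, so nothing is read from that value. CCR1, which binds CCL5, had 24, 20 and 32 counts in Par, 53, 74 and 38 in LM2 and 6, 14 and 4 in BrM2, and was lower in BrM2 than in LM2 by -2.48 (SE 0.45, edgeR adjusted p = 0.0106). The adjusted p of that call reached 0.212 over all alternatives. Against Par, CCR1 differed by 1.02 in LM2 (SE 0.41, edgeR adjusted p = 0.193) and by -1.46 in BrM2 (SE 0.46, edgeR adjusted p = 0.0768). Both passed with the replicate block (edgeR adjusted p = 0.0415 and 0.0137, with ranges over the alternatives up to 0.999 and 0.511).

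Among 102 other genes of the chemokine system, grouped by role, 79 had a count and 42 were tested. In LM2 against Par 5 of the 42 passed (2 higher and 3 lower, beside the 8.65% of all genes), in BrM2 against Par 7 (3 higher and 4 lower, beside 13.2%) and in BrM2 against LM2 6 (3 higher and 3 lower, beside 8.08%). With the replicate block 22, 16 and 22 passed, beside 34.5%, 42.7% and 37.5% of all genes. Some of the named genes passed the filter only through the line where they are high, CX3CL1 through Par, ELMO1 through BrM2 and CCR1 through LM2. PIK3CG and IL1B passed it only through LM2 and BrM2, where both are higher than in Par. These counts are therefore a description and support nothing about the group. None of the 12 other CXC ligands reached the filter, and 2 of the 24 other CC, XC and CX3C ligands did.

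Of these ligands, CX3CL1, the membrane-bound ligand of CX3CR1, had 321, 198 and 184 counts in Par, 28, 22 and 20 in LM2 and 4, 5 and 8 in BrM2. No libraries overlapped between lines. It was lower than in Par by -3.46 in LM2 (SE 0.40, edgeR adjusted p = 0.00102) and by -5.20 in BrM2 (SE 0.47, edgeR adjusted p = 0.000223). Over all alternatives these adjusted p-values reached 0.0903 in LM2 and 0.0431 in BrM2. The difference between BrM2 and LM2 was -1.74 (SE 0.47, edgeR adjusted p = 0.058), and with the replicate block it passed (edgeR adjusted p = 0.00485, with a range of 0.00485 to 0.522 over the alternatives). CCL28, a mucosal chemokine, averaged 7.61 ± 0.708 CPM in Par, 11.99 ± 0.6002 in LM2 and 6.10 ± 0.261 in BrM2 (SD, n = 3). It was lower in BrM2 than in LM2 by -0.97 (SE 0.18, edgeR adjusted p = 0.0122). LM2 differed from Par by 0.65 (SE 0.18, edgeR adjusted p = 0.0621), which passed with the block (edgeR adjusted p = 0.00761, with a range up to 0.812 over the alternatives). The CCL28 call between BrM2 and LM2 was lost without BrM2 replicate 2 (edgeR adjusted p = 0.0514), BrM2 replicate 3 (0.0731) or LM2 replicate 2 (0.0584).

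Of 21 other chemokine receptors 2 were tested, CCR1 and CCRL2. CCRL2, an atypical receptor that presents chemerin, averaged 42.2 ± 3.33 CPM in Par, 10.3 ± 3.37 in LM2 and 19.9 ± 3.87 in BrM2 (SD, n = 3), with the Par libraries above all others. It was lower than in Par by -2.04 in LM2 (SE 0.27, edgeR adjusted p = 0.00192) and by -1.09 in BrM2 (SE 0.26, edgeR adjusted p = 0.0257). Over all alternatives these adjusted p-values reached 0.163 in LM2 and 0.443 in BrM2. BrM2 and LM2 differed by 0.95 (SE 0.26, edgeR adjusted p = 0.0627), and with the block this passed (edgeR adjusted p = 0.000649, with a range up to 0.64 over the alternatives). The BrM2 call was lost without BrM2 replicate 2 (edgeR adjusted p = 0.118) or 3 (0.117), or without Par replicate 1 (0.0806), 2 (0.0712) or 3 (0.0733).

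Among 14 tested genes of receptor coupling and desensitization, PIK3CG, the catalytic subunit of PI3-kinase gamma, had 3, 2 and 3 counts in Par, 59, 96 and 118 in LM2 and 26, 59 and 42 in BrM2. It was higher than in Par by 4.88 in LM2 (edgeR adjusted p = 0.000123) and by 4.09 in BrM2 (edgeR adjusted p = 0.000211), with ratios of summed counts of 31.4 (95% interval 15.7 to 73.5) and 18.1 (95% interval 8.92 to 42.9). BrM2 differed from LM2 by -0.79 (SE 0.27, edgeR adjusted p = 0.124), which passed with the block (edgeR adjusted p = 0.0214, with a range up to 0.874 over the alternatives). ELMO1, a partner of DOCK proteins in Rac activation, had 3 counts in each Par library, 4, 1 and 0 in LM2 and 54, 76 and 68 in BrM2. It was higher in BrM2 than in Par by 4.61 (edgeR adjusted p = 0.00106) and than in LM2 by 5.50 (edgeR adjusted p = 0.000935), with ratios of summed counts of 25.1 (95% interval 12.96 to 55.7) and 49.1 (95% interval 20.7 to 153). ELMO1 was thus above a few counts only in BrM2. The adjusted p of its calls reached 0.103 against Par and 0.133 against LM2 over all alternatives. PTK2B, the kinase PYK2, was lower in BrM2 than in Par by -2.01 (SE 0.38, edgeR adjusted p = 0.00874, with a range up to 0.251 over the alternatives). In LM2 it differed from Par by -1.37 (SE 0.37, edgeR adjusted p = 0.0554), which passed with the block (edgeR adjusted p = 0.0021, with a range of 0.00194 to 0.659 over the alternatives), and between BrM2 and LM2 by -0.63 (SE 0.38, edgeR adjusted p = 0.402). DOCK2, an activator of Rac in migrating leukocytes, was lower in BrM2 than in Par by -0.60 (SE 0.16, edgeR adjusted p = 0.0413). The difference between LM2 and Par had the same size, -0.60 (SE 0.16, edgeR adjusted p = 0.0554), and passed with the block (edgeR adjusted p = 0.00369, with a range of 0.00117 to 0.841 over the alternatives). The DOCK2 call was kept in 1 of 9 fits without 1 library, where the adjusted p reached 0.153, and was lost with relative log expression factors (edgeR adjusted p = 0.0539) and without the filter on low counts (0.344).

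Among 15 tested inducers of chemokine transcription, IL1B, the gene of IL-1β, passed in all 3 comparisons. It had 5, 5 and 14 counts in Par, 793, 816 and 634 in LM2 and 99, 127 and 70 in BrM2, and no lines overlapped. It was higher than in Par by 6.47 in LM2 (SE 0.47, edgeR adjusted p = 0.000118) and by 3.89 in BrM2 (SE 0.44, edgeR adjusted p = 0.000607), and lower in BrM2 than in LM2 by -2.58 (SE 0.37, edgeR adjusted p = 0.00334). IL1B was thus highest in LM2, and its part in the levels of the chemokine and receptor genes was not tested. Over all alternatives the IL1B adjusted p reached 0.0486 (LM2 against Par), 0.0777 (BrM2 against Par) and 0.204 (BrM2 against LM2). NFKB2, a subunit of NF-κB, averaged 64.9 ± 15.7 CPM in Par, 37.1 ± 15.03 in LM2 and 90.8 ± 20.7 in BrM2 (SD, n = 3), and was higher in BrM2 than in LM2 by 1.29 (SE 0.33, edgeR adjusted p = 0.0453). That call was kept in 1 of 9 fits without 1 library, where the edgeR adjusted p reached 0.176, and was lost with relative log expression factors (0.0539). Against Par, NFKB2 differed by -0.81 in LM2 (edgeR adjusted p = 0.198) and by 0.48 in BrM2 (edgeR adjusted p = 0.429), and both passed with the block (edgeR adjusted p = 0.00187 and 0.0238, with ranges up to 0.963 and 0.883).

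Of 6 tested factors of chemokine mRNA decay, ZFP36L2, an RNA-binding protein that promotes decay, averaged 28.0 ± 0.128 CPM in Par, 17.9 ± 1.40 in LM2 and 32.8 ± 2.26 in BrM2 (SD, n = 3). It was lower in LM2 than in Par by -0.65 (SE 0.17, edgeR adjusted p = 0.0452), a call kept in 0 of 9 fits without 1 library, where the edgeR adjusted p was 0.0527 to 0.154, and lost with relative log expression factors (0.0573). It was higher in BrM2 than in LM2 by 0.87 (SE 0.17, edgeR adjusted p = 0.0127), which was lost without BrM2 replicate 3 (edgeR adjusted p = 0.0714) or LM2 replicate 2 (0.0566). Without the filter on low counts both calls were lost (edgeR adjusted p = 0.369 and 0.118), as was that of CCL28 (0.0947). Among the proteases of chemokine shedding and the cytokine receptor CD74, none of 3 tested genes passed in the edgeR fit of all libraries without the block. With it, ADAM10, the protease of CXCL16 and CX3CL1, was lower than in Par by -0.97 in LM2 (edgeR adjusted p = 0.000283) and by -1.16 in BrM2 (edgeR adjusted p = 6.35e-05). Without the block its adjusted p-values in edgeR were 0.431 and 0.266, and over all alternatives they reached 0.989 and 0.788. ADAM17, another such protease, went the other way in BrM2 with the block, by 0.65 against Par (edgeR adjusted p = 0.00111) and by 1.04 against LM2 (edgeR adjusted p = 8.05e-05), and by -0.39 in LM2 against Par (edgeR adjusted p = 0.0232). CD74, a receptor subunit for MIF, was lower with the block by -0.68 in LM2 (edgeR adjusted p = 0.00556) and by -1.60 in BrM2 (edgeR adjusted p = 1.83e-05) against Par and by -0.92 in BrM2 against LM2 (edgeR adjusted p = 0.00103). Without the block the edgeR adjusted p-values of ADAM17 were 0.684 (LM2 against Par), 0.329 (BrM2 against Par) and 0.146 (BrM2 against LM2). Those of CD74 were 0.617, 0.0994 and 0.379 in the same order. CD74 in BrM2 against Par passed with DESeq2 (adjusted p = 0.0416) and without the filter on low counts (edgeR adjusted p = 0.00875). Over the alternatives the adjusted p-values of both genes reached at least 0.597 in each comparison.

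**Figure D4:**
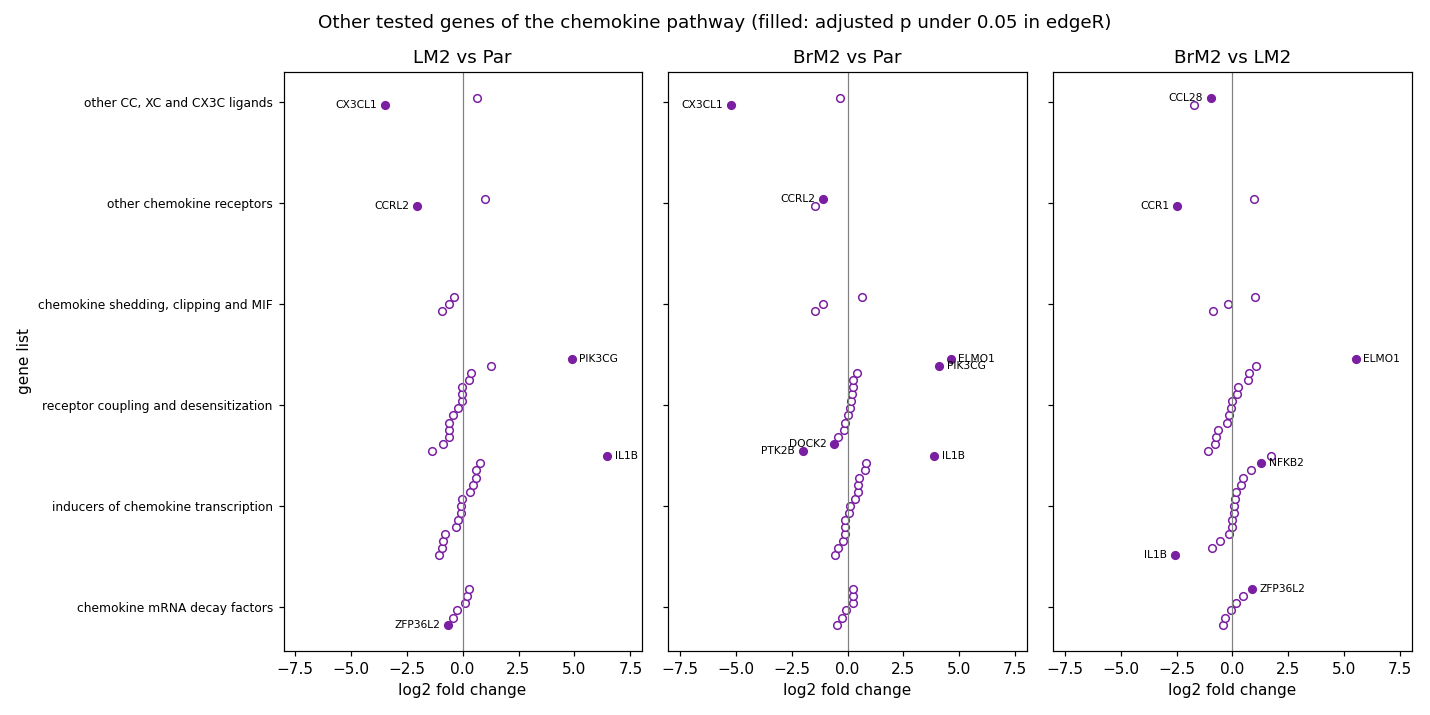
Log2 fold change (x axis) of the 42 other tested genes of the chemokine system in 6 lists (rows), in each comparison. Filled and named points passed an adjusted p of 0.05 in edgeR, 5 in LM2 against Par, 7 in BrM2 against Par and 6 in BrM2 against LM2.

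The genes whose log2 CPM were most alike over the 9 libraries are a description, since the libraries of a line share their level. CCL2 and CXCR4 were close to each other, with a Pearson correlation of 0.991. CCL2 was also close to GPRC5B (0.993) and NFATC2 (0.992), and CXCR4 to DAPK1 (0.994) and BOLA3-AS1 (0.989). ACKR3 was close to SH3PXD2A (0.994) and NOX5 (0.992), and CXCL16 to CDCP1 (0.983), SMURF1 (0.981) and BRPF3 (0.980). CXCL1 was closest to SEPHS2 (0.953), ACYP2 (0.945) and ENSG00000261253 (0.944), and CXCL8 to ITGB2-AS1 (0.951), HMSD (0.9496) and CD33 (0.949). For CXCL2 the highest values were lower, 0.838 for ANKRA2, 0.797 for TBX19 and 0.766 for LYPLAL1.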

How the data were processed

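RNA-seq was performed by the authors on 9 libraries, with 3 replicates of each of 3 lines. Per the labels and the study's methods, stranded mRNA libraries were sequenced as paired ends, and reads were aligned to hg38 and counted per gene with STAR 2.7.0 after base calling with CASAVA 1.8.2, as the submitters' processing notes name them. The deposited values are raw counts, without normalization. The counted strand is not given in the sources used here. A second table, with the authors' own fold changes and adjusted p-values from DESeq2 in 4 columns, was not used.

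The count table has 58887 rows. For 3 identifiers listed as identical copies under different symbols, 1 copy was kept, and of the 58884 genes 34056 had a count. A filter written after HTSFilter kept the 13001 genes whose largest normalized count exceeded 49.24. Genes were tested in edgeR 4.0.16 (R 4.3.3) with TMM factors and the 2-sided quasi-likelihood test, in 1 fit of all 9 libraries with a mean per line. The Benjamini-Hochberg adjustment ran over all genes tested, with 0.05 as the threshold. SE is the size of the log2 fold change divided by the root of F. Intervals of count ratios are exact and cover counting error only. The smallest level called above the floor is over 3 counts in a library. Alternatives were relative log expression factors, no filter, DESeq2 1.42.0, the replicate block and leaving out libraries.

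The pairing by replicate number was examined in the deviations of log2 CPM from the line means. The correlation across genes was 0.23 to 0.90 in all 9 same-numbered pairs. Pairs with different numbers were not compared. Deviations within a line cancel, so the other libraries can correlate because those numbered 1 stand apart. These values cannot decide whether the numbers pair the libraries, and the block takes that pairing as an assumption. The common dispersion was 0.110 without the block and 0.0207 with it. P-values measure the spread between passages of 1 culture line.

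Genes were named by a rule: every one of the 10, the 4 largest changes past the threshold in each list of the chemokine system and comparison, the receptors and ligands of the 10, and the 3 most alike genes by Pearson correlation of log2 CPM (prior count 2). Some genes that the rule selects are not reported here. CX3CR1, MIF, ADAM10, ADAM17 and CD74 were added after their values were seen. The 10 genes, the lists and the rule were chosen with earlier results of these data known. Promoters came from RefSeq (GRCh38.p14, by symbol), and exon lengths, overlaps and shared stretches from a GENCODE annotation matched by identifier.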

Additional observations from a re-analysis of the deposited data

Results flagged for a closer look

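The effects of the lung and brain selected sub-populations against the same Par libraries differed from each other, by the direct edgeR test of BrM2 against LM2, for CCL2 (log2 difference 8.55) and CXCR4 (7.02). Both were lower than Par in LM2 and higher than Par in BrM2. Among the other genes of the chemokine system the same test passed for ELMO1 (5.50), NFKB2 (1.29) and ZFP36L2 (0.87), which were higher in BrM2, and for IL1B (-2.58), CCR1 (-2.48) and CCL28 (-0.97), which were lower in BrM2.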

How the results depend on the processing

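Of 336 values of the 21 comparisons of chemokine and receptor genes under 16 alternatives, 284 kept their direction and side of the threshold, 21 passed the threshold only under the alternative, 20 lost it and 11 changed sign. The calls of CCL2 and CXCR4 passed in all 3 comparisons under all 16. With DESeq2, 1885 genes passed in LM2 against Par and 1812 in BrM2 against LM2, and with the replicate block 4487, 5551 in BrM2 against Par, and 4880. Leaving out libraries gave 70 to 4301 genes in LM2 against Par, 158 to 5249 in BrM2 against Par and 53 to 4240 in BrM2 against LM2, lowest without replicate 2 and highest without replicate 1 of every line. The 10 chemokine and receptor genes gave 2 to 4, 2 to 6 and 2 to 3 calls in these fits. The other 102 genes of the chemokine system gave 2 to 21, 2 to 15 and 0 to 21, and 22, 16 and 22 with the block. In LM2 against Par they gave 12 without the filter on low counts and 9 with DESeq2. These alternatives for the 102 genes were chosen after seeing the data. The pairing by replicate number changed no other call of the 10 genes than those given beside their values. Without libraries, CXCL2 ranged from -1.003 to 0.18 in LM2 against Par and from -0.19 to 0.36 in BrM2 against LM2, CXCL8 from -0.36 to 1.33 in LM2 against Par, and ACKR3 from -4.62 to 1.63 in BrM2 against LM2, and none of these passed. Why the values moved was not tested. Depth limits CXCL3, CCL5, CCL20 and the sublines' values of ACKR3 and CXCL16.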
